A study of Mus musculus with 12 samples.

Results

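The enzymes of de novo purine synthesis were examined in the livers of male Atf7-/- and WT mice conceived by IVF or by natural mating. The set comprised 10 genes, Prps1, Ppat, Gart, Pfas, Paics, Adsl, Atic, Impdh1, Impdh2 and Gmps. They were chosen by their place in the pathway, with earlier results of these data known. A gene entered through every probe set whose platform annotation names it alone. This gave 9 probe sets for 9 of the 10 genes, out of 34760 probe sets in all, and Impdh2 was not analysed here. Expression was read on 12 arrays (Affymetrix Mouse Gene 1.0 ST), 1 per mouse, with 3 mice of different mothers or recipients in each of 4 groups, Atf7-/- IVF, Atf7-/- natural mating, WT IVF and WT natural mating. All mice were on the C57BL6/JJmsSlc background, and the sample labels give their age as 4 weeks. The Atf7-/- mice, which lack the stress-responsive transcription factor ATF7, had Atf7-/- parents, so the genotype of the offspring and that of the parents cannot be told apart. The IVF mice came from eggs of superovulated females fertilized in culture and moved as embryos into ICR recipients, and the effects of these steps cannot be told apart either.

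Purine nucleotides are built step by step on ribose 5-phosphate. PRPS1 activates the sugar to phosphoribosyl pyrophosphate (PRPP), PPAT commits PRPP to the pathway, and GART, PFAS, PAICS, ADSL and ATIC assemble the ring to inosine monophosphate (IMP). IMP is then turned into guanine nucleotides by the IMPDH enzymes and GMPS, or into adenine nucleotides by adenylosuccinate synthase and ADSL. The liver is a main site of this synthesis and supplies purines to tissues that depend on salvage, the recycling of free bases and nucleosides.

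ATF7 belongs to the ATF/CREB family, whose members bind the cAMP response element TGACGTCA and its core TGACG, and MYC, a known activator of purine genes, binds the E-box CACGTG. The promoter table of RefSeq (build GRCm38.p6) held windows of 300 bases, 250 before and 50 from the gene start, for 9 of the 10 genes. It gave 2 windows for Impdh1 and none for Pfas. On both strands, TGACGTCA was found in 0 of the 10 windows, against 1.79% of all 32851 windows in the table. TGACG, which TGACGTCA contains on both strands, was found in 5 of 10, against 20.8% of all windows, and CACGTG in 3 of 10, against 7.15%. A match is a description of these letters and not a bound site. The E-box matches are shown with 12 bases on either side, 5′ to 3′ on the gene strand and with CACGTG in capitals, since Paics is the member with the widest difference between group means. The Paics match lies 203 bases before the gene start (chr5:76951087-76951116, plus strand), that of Atic 7 bases before (chr1:71557137-71557166, plus strand) and that of Impdh2 110 bases before (chr9:108560314-108560343, plus strand).
Paics: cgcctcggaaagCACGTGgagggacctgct
Atic: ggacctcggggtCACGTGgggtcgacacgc
Impdh2: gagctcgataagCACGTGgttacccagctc
The TGACG cores of Ppat, Gart and Gmps are shown in the same way with TGACG in capitals, as matches to the letters that ATF7's family can bind. They lie 30 bases before the start of Ppat (chr5:76951592-76951620, minus strand), 166 before Gart (chr16:91647122-91647150, minus strand) and 80 before Gmps (chr3:63976051-63976079, plus strand).
Ppat: gcgcaggcgcgcTGACGcgaccccgcttc
Gart: agtgacagccccTGACGagcatcatcagc
Gmps: atcttcccggggTGACGacgagggcgggg
Ppat and Paics are neighbours on chromosome 5 and are read in opposite directions. The 250 bases before the Prps1 start (chrX:140456353-140456602, plus strand) are shown because Prps1 was the member called for IVF in WT mice. They held none of the ATF or E-box motifs, and the capitals mark matches on either strand to the GC box GGGCGG and to CCAAT, which were looked for after the sequences were seen.
Prps1: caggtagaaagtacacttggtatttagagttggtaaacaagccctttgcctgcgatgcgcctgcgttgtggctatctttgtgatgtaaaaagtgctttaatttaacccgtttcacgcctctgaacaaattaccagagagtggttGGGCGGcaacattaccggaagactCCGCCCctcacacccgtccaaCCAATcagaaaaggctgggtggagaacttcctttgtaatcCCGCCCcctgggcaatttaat
GGGCGG was found in 10 of the 10 windows, against 35.7% of all windows, and CCAAT in 5 of 10, against 37.4%.

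Expression is given as log2 values from robust multiarray averaging (RMA), so a difference of 1 is a doubling, and values of different genes are not compared because probe sets differ in brightness. Differences were fitted with limma over all 12 arrays with Benjamini-Hochberg adjustment of the p-values across all probe sets. A gene was called where its adjusted p was 0.05 or less and its log2 fold change was 0.6 or more in either direction, as in the methods of the study. Array medians were 6.22 to 6.34, and arrays of the same group correlated at r = 0.980 to 0.990. The Atf7 probe set 10433032 read 5.52 ± 0.17 in Atf7-/- IVF, 5.96 ± 0.14 in Atf7-/- natural mating, 8.04 ± 0.43 in WT IVF and 8.78 ± 0.18 in WT natural mating (SD, n = 3 each), in the direction of the labels. It was also called lower with IVF in WT (-0.74, adjusted p = 0.0384). The other Atf7 probe set, 10433034, averaged 8.38, 8.68, 8.76 and 9.02 in these groups in the same order. It was not called for IVF in WT (-0.26, adjusted p = 0.19). Nor was it called for loss of ATF7 in natural mating (adjusted p = 0.0758) or in IVF mice (adjusted p = 0.721). The study reported that IVF changed neither Atf7 mRNA nor ATF7 protein in WT liver. Where either probe set lies relative to the deleted part was not analysed here. The 9 hepatocyte markers averaged 13.3 to 13.5 on every array, and 0 of them were called in any comparison. The comparisons called 0.00575% to 7.5% of all probe sets. For IVF in Atf7-/- mice, 5 of the 9 had an unadjusted limma p under 0.05, against 26% of all probe sets. Among them Cps1 differed by 0.47 (adjusted p = 0.0147), under the fold limit. In whole liver, fewer cells of a type and less RNA per cell cannot be told apart.

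The 9 measured genes did not move as a block. Prps1 rose with IVF in WT mice, Paics rose and Pfas fell with loss of ATF7 in naturally conceived mice, and 6 genes, Ppat, Gart, Adsl, Atic, Impdh1 and Gmps, were called in no comparison. Of the called genes, both Prps1 and Paics had their lowest group mean in WT natural mating and Pfas its highest there. Every comparison against WT natural mating uses the same 3 arrays, so these results are not independent of each other. The spread of the 4 group means was narrowest for Gart, at 0.029, and widest for Paics, at 0.79.

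**Figure D1:**
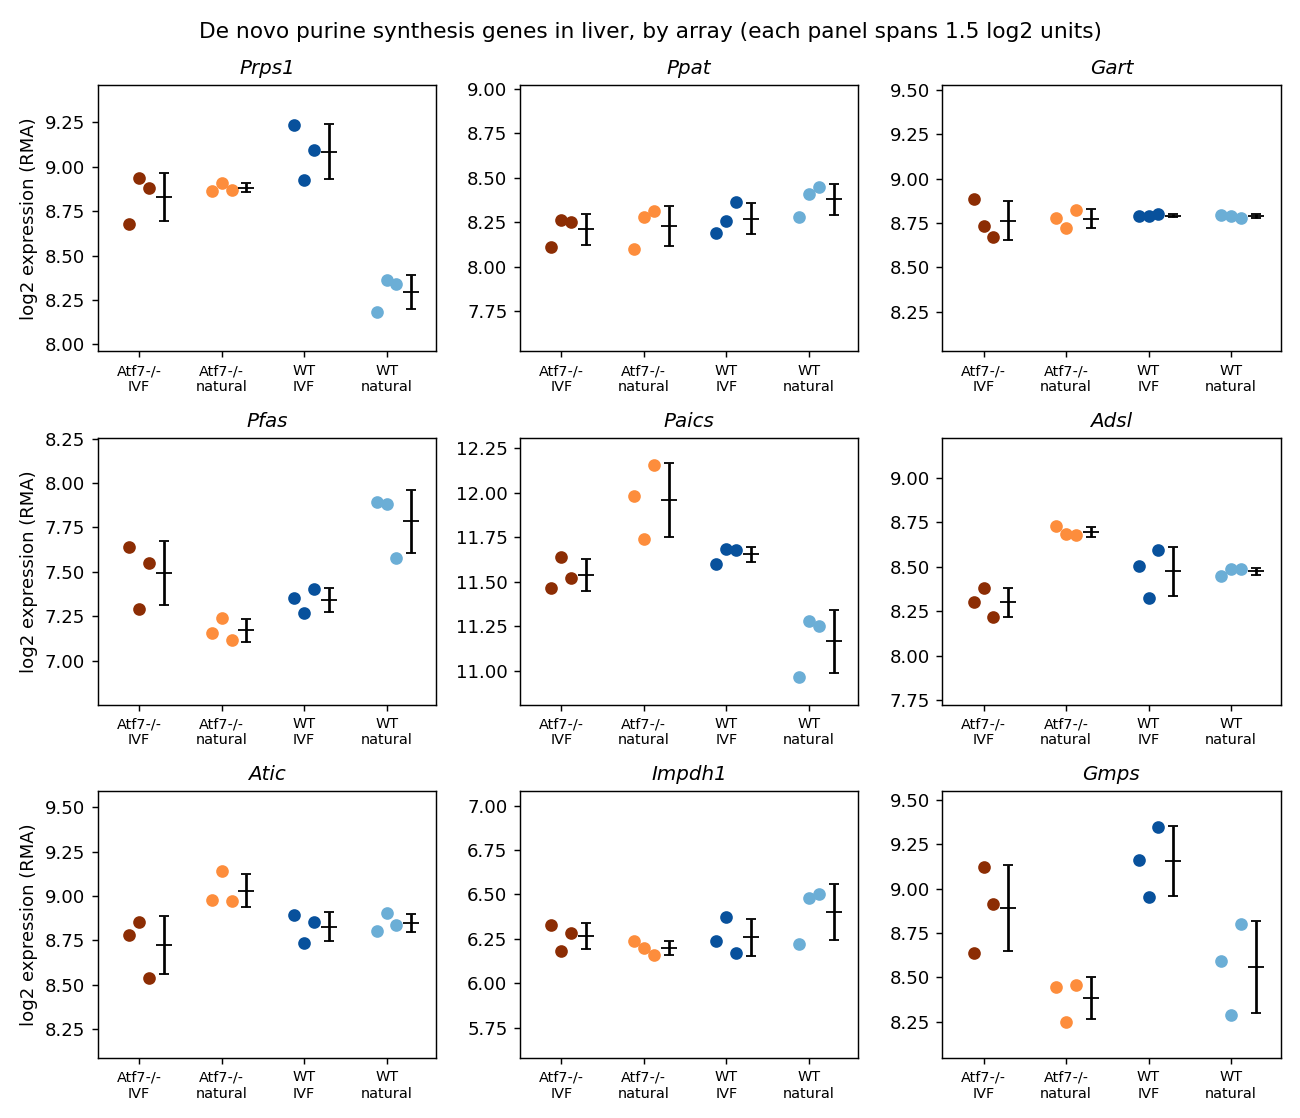
Log2 expression (RMA) of the 9 measured de novo purine genes on each array, in the 4 groups, with the mean and SD of the 3 arrays in black. Each panel spans 1.5 log2 units. Prps1 and Paics were lowest and Pfas highest in WT natural mating, and Gart varied by only 0.029 between group means.

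The first question was whether conception by IVF altered the pathway in WT liver. Of the 9 genes, 1 was called, and it rose, while 4.52% of all probe sets were called and 2.85% were called higher. The median log2 fold change of the 9 genes was 0.00031, beside -0.036 over all probe sets. A further 3 genes, Paics, Pfas and Gmps, passed the limit on the adjusted p but not that on the fold, and 8.62% of all probe sets passed the first limit at any fold. The 3 IVF arrays lay wholly on one side of the 3 natural mating arrays in 4 genes, Prps1, Paics and Gmps above and Pfas below. Over all probe sets, 29.4% separated in this way.

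Prps1, which makes the PRPP that purine, pyrimidine and salvage enzymes share (probe set 10602062, chromosome X), read 9.24, 8.93 and 9.09 in WT IVF, against 8.18, 8.36 and 8.34 in WT natural mating. All 3 IVF mice were thus above all 3 naturally conceived mice. The log2 fold change was 0.79 (SE 0.10, adjusted p = 0.00238), a 1.73-fold rise that was called without each array in turn. Markers of dividing cells moved with the same groups. Their mean over 19 measured markers was 7.93 to 8.16 in WT IVF and 6.80 to 7.22 in WT natural mating, 19 of 19 were above 0 with a median difference of 1.04, and 3 of them, Bub1, Pcna and Nusap1, were called higher. Stellate cell markers were above 0 in 8 of 8, with a median of 0.41 and Reln and Hgf called higher. Kupffer cell markers were below 0 in 7 of 8, with a median of -0.31 and Cd5l called lower. The endothelial marker Clec4g and the lymphocyte marker Ms4a1 were also called higher. Their lists were mixed, with 6 of 8 endothelial markers (median 0.14) and 4 of 8 lymphocyte markers (median 0.12) above 0. Of all probe sets, 4.52% were called. The part of these cells in the Prps1 result was not tested.

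Gmps, which aminates xanthosine monophosphate to GMP (probe set 10492381), lay at the fold limit. It read 9.16, 8.95 and 9.35 in WT IVF and 8.59, 8.29 and 8.80 in WT natural mating. The difference was 0.59 (SE 0.16, adjusted p = 0.0449), a fold change just under the limit of 0.6. It passed both limits with array weights (0.67), with median centring (0.66) and without WT natural mating replicate 3 (0.71). Without any other of the 6 arrays its adjusted p was above the limit, at most 0.144, and the difference was as low as 0.46 without WT natural mating replicate 2. The adjusted p was 0.0985 with only the groups compared in the fit.

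Paics, an enzyme that carries out a pair of consecutive steps in the middle of the pathway (probe set 10522668), read 11.60, 11.68 and 11.68 in WT IVF and 10.96, 11.28 and 11.25 in WT natural mating. Its difference of 0.49 (SE 0.12, adjusted p = 0.0327) was below the fold limit. Pfas, which acts shortly before PAICS (probe set 10387222), had the opposite sign. It read 7.35, 7.27 and 7.40 in WT IVF and 7.89, 7.88 and 7.58 in WT natural mating, a difference of -0.44 (SE 0.12, adjusted p = 0.0391) that was also below the fold limit. With only the groups compared in the fit, neither kept an adjusted p below the limit (0.0679 for Paics and 0.0887 for Pfas). The other 5 genes lay between -0.14 and 0.0027, and the 95% intervals of their differences stayed within -0.36 and 0.20.

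In Atf7-/- mice the same comparison called 0 of the 9 genes, against 6.78% of all probe sets. Without the adjustment 5 of 9 had a p under 0.05, against 26% of all probe sets, and the median log2 fold change was -0.020, beside 0.0057 over all probe sets. Prps1 read 8.68, 8.93 and 8.88 in Atf7-/- IVF and 8.86, 8.91 and 8.87 in Atf7-/- natural mating. The groups overlapped, and the difference was -0.05 (95% interval -0.28 to 0.18).

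Of the 9 genes, 6 had lower means and 3 higher means with IVF in these mice. Paics read 11.46, 11.64 and 11.52 in Atf7-/- IVF and 11.98, 11.74 and 12.16 in Atf7-/- natural mating, a difference of -0.42 (SE 0.12, adjusted p = 0.044). Adsl, which splits off fumarate both before IMP and on the way to AMP (probe set 10425461), read 8.30, 8.38 and 8.22 in Atf7-/- IVF and 8.73, 8.68 and 8.68 in Atf7-/- natural mating. The difference was -0.40 (SE 0.088, adjusted p = 0.013), and the groups did not overlap. Atic, which completes IMP (probe set 10347193), had 8.78, 8.85 and 8.54 in Atf7-/- IVF and 8.98, 9.14 and 8.97 in Atf7-/- natural mating, with a difference of -0.31 (SE 0.10, adjusted p = 0.0694). None of these reached the fold limit. An adjusted p of 0.05 or less at any fold was met by 2 of the 9 genes, Paics and Adsl, against 12.9% of all probe sets. Across the pathway, 5 genes had groups that did not overlap, against 32.2% of all probe sets, with Paics, Adsl and Atic below and Pfas and Gmps above.

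Pfas read 7.64, 7.29 and 7.55 in Atf7-/- IVF and 7.15, 7.24 and 7.12 in Atf7-/- natural mating, a difference of 0.32 (SE 0.12, adjusted p = 0.0955). Gmps read 8.64, 9.12 and 8.91 in Atf7-/- IVF, against 8.45, 8.25 and 8.46 in Atf7-/- natural mating. Its difference of 0.51 (SE 0.16, adjusted p = 0.064) missed both limits and met them without Atf7-/- IVF replicate 1 (0.63, adjusted p = 0.0329). Without Atf7-/- IVF replicate 2 it was 0.39 (adjusted p = 0.198), the lowest of the 6 omissions. The dividing-cell markers averaged 6.95, 8.36 and 6.99 in Atf7-/- IVF and 7.38, 7.27 and 7.95 in Atf7-/- natural mating, so Atf7-/- IVF replicate 2 stood apart from its group. That replicate also had the highest Prps1, Ppat, Paics, Adsl, Atic and Gmps values of its group and the lowest Pfas and Impdh1 values. Its Gart value lay between those of the others. Of 12 blood-forming markers, only Tfrc (1.84) was called higher with IVF, and the median of the list was 0.057. Among 8 lymphocyte markers, Cd3g (0.74) and Ms4a1 (0.71) were called higher, with 5 above 0, 3 below and a median of 0.047. Of all probe sets, 6.78% were called. The part of these cells in the values was not tested.

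The next question was what loss of ATF7 did without IVF. In naturally conceived mice, 2 of the 9 genes were called, Paics higher and Pfas lower, while 7.5% of all probe sets were called (3.83% higher and 3.67% lower). The median log2 fold change of the 9 genes was -0.014, beside -0.019 over all probe sets. The groups did not overlap in 5 genes, against 31.9% of all probe sets, with Prps1, Paics, Adsl and Atic above and Pfas below. The adjusted p alone was within the limit in 3 genes, Prps1, Paics and Pfas, against 13.7% of all probe sets.

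Paics averaged 11.96 ± 0.21 in Atf7-/- natural mating and 11.16 ± 0.18 in WT natural mating (SD, n = 3 each). Every Atf7-/- value, from 11.74 upward, was above every WT value, of which the highest was 11.28. The log2 fold change was 0.79 (SE 0.12, adjusted p = 0.00172), a 1.73-fold rise that was called without each array in turn.

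Pfas averaged 7.17 ± 0.07 in Atf7-/- natural mating and 7.78 ± 0.18 in WT natural mating (SD, n = 3 each). The highest Atf7-/- value, 7.24, was below the lowest WT value, 7.58. The log2 fold change was -0.61 (SE 0.12, adjusted p = 0.00523), close to the fold limit. The call ended without Atf7-/- natural mating replicate 3 (-0.58), without WT natural mating replicate 1 (-0.56) or 2 (-0.56), and with median centring (-0.57), each time through the fold alone.

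Prps1 averaged 8.88 ± 0.03 in Atf7-/- natural mating and 8.29 ± 0.10 in WT natural mating (SD, n = 3 each), with no overlap. Its log2 fold change of 0.59 (SE 0.10, adjusted p = 0.00377) was just short of the fold limit and passed it with median centring (0.63) and without WT natural mating replicate 2 (0.62) or 3 (0.61). The call on Pfas and the missed call on Prps1 thus both turned on differences of a few hundredths around 0.6. Adsl differed by 0.22 (SE 0.088, adjusted p = 0.128) and Atic by 0.18 (SE 0.10, adjusted p = 0.282), and neither passed the test. Of 19 dividing-cell markers, 18 were above 0 here, with a median difference of 0.64, and 1, Aurka, was called higher. All 8 stellate cell markers were above 0, with a median of 0.27 and 0 called. Among 8 Kupffer cell markers 3 were called lower and 1 higher, with a median of -0.37. The endothelial marker Clec4g and the bile duct marker Krt19 were called higher. Each was the 1 call of its list, with medians of 0.17 over 8 endothelial and 0.14 over 5 bile duct markers. Of all probe sets, 7.5% were called. The part of these cells in the Paics and Pfas results was not tested.

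**Figure D2:**
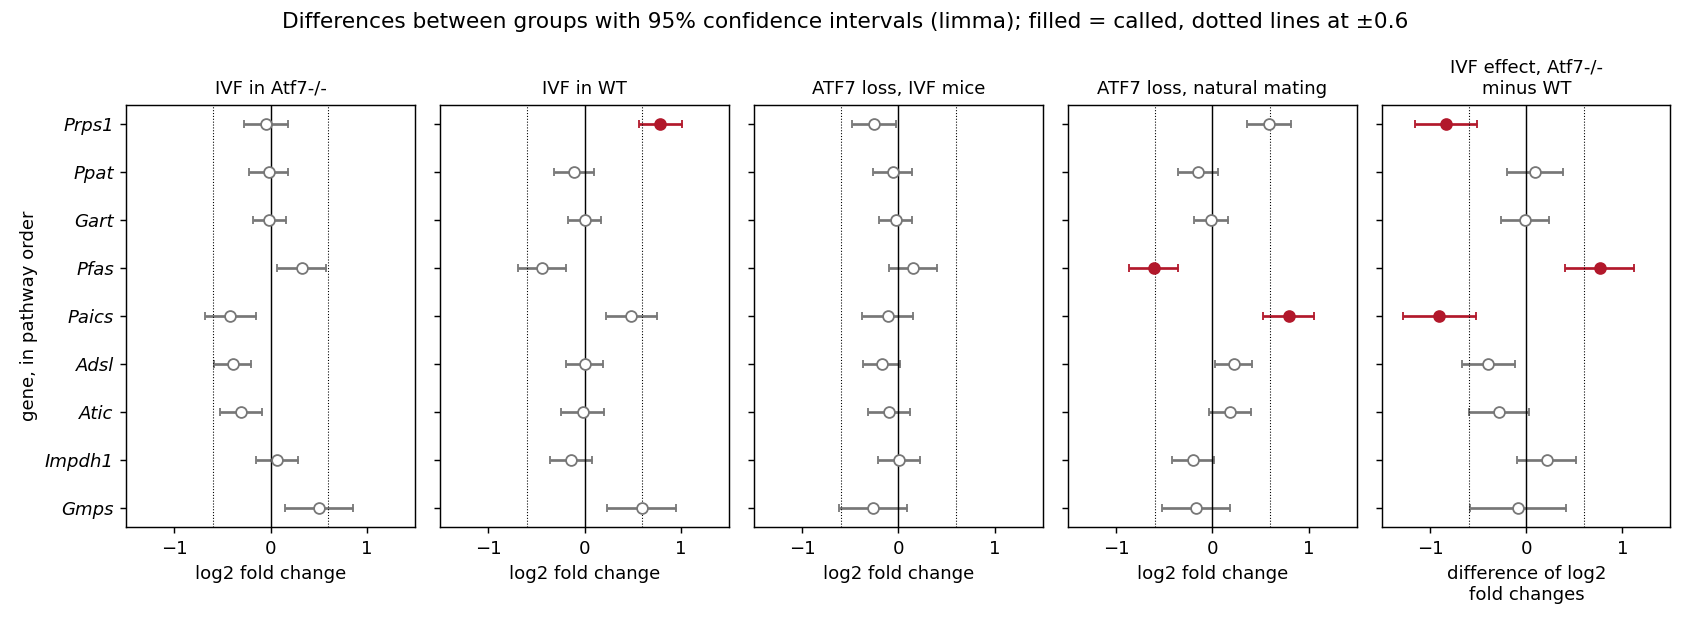
Log2 fold changes of the 9 genes, in pathway order, with 95% confidence intervals from the limma fit. Filled red points were called and dotted lines mark the fold limit of 0.6. Prps1 was called for IVF in WT (0.79), Paics (0.79) and Pfas (-0.61) for loss of ATF7 in natural mating, and the last panel shows that the IVF effect differed between genotypes in these 3 genes.

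Among IVF mice, loss of ATF7 called 0 of the 9 genes, and only 2 of 34760 probe sets, 0.00575%, were called at all. Without the adjustment 1 gene, Prps1, had a p under 0.05, against 6.12% of all probe sets. The 9 genes lay between -0.26 and 0.15, with a median of -0.10, beside 0.0073 over all probe sets, and groups overlapped in all 9, where 10.9% of all probe sets did not overlap. Prps1 differed by -0.25 (SE 0.10, adjusted p = 0.792) and Gmps by -0.26 (SE 0.16, adjusted p = 0.862). The 95% interval of the Paics difference was -0.38 to 0.15 and that of Pfas -0.10 to 0.41. All 19 dividing-cell markers were below 0, with a median of -0.65 and 0 called. All 5 bile duct markers were above 0, with a median of 0.13 and 0 called. Whether these cells had a part in the values was not tested.

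Against WT natural mating, the Atf7-/- IVF mice differed in both genotype and conception. None of the 9 genes was called, against 3.14% of all probe sets, and 3 of 9 had an unadjusted p under 0.05, against 21.3%. The median was -0.12, beside -0.018 over all probe sets. The groups did not overlap in 4 genes, against 22.6% of all probe sets, with Prps1 and Paics above and Ppat and Adsl below. Prps1 differed by 0.54 (SE 0.10, adjusted p = 0.0159), under the fold limit, and was the 1 gene within the limit on the adjusted p, which 5.78% of all probe sets met. It reached the fold limit without Atf7-/- IVF replicate 1 (0.61), and its adjusted p was above the limit without Atf7-/- IVF replicate 2 (0.0622) or 3 (0.059). The adjusted p was 0.0983 with only the compared groups in the fit. Paics differed by 0.37 (SE 0.12, adjusted p = 0.0994) and Pfas by -0.29 (SE 0.12, adjusted p = 0.174). Dividing-cell markers were above 0 in 18 of 19 (median 0.41, 0 called). All 8 stellate cell markers were above 0 (median 0.51, Reln and Hgf called higher). Kupffer cell markers were below 0 in 7 of 8 (median -0.41, Cd5l called lower). Clec4g, Krt19 and Ms4a1 were called higher, each the 1 call of its list (medians 0.18, 0.27 and 0.15). Whether these cells had a part in the values was not tested.

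Whether the IVF effect depended on ATF7 was tested as a difference of differences, the IVF effect in Atf7-/- mice minus that in WT mice. Of the 9 genes, 3 were called, Prps1 and Paics lower and Pfas higher, against 6.18% of all probe sets (2.72% higher and 3.46% lower). The median over the 9 genes was -0.087, beside 0.032 over all probe sets. For Prps1 the IVF effect was -0.05 in Atf7-/- and 0.79 in WT, a difference of -0.84 (SE 0.15, adjusted p = 0.00757). For Paics it was -0.42 in Atf7-/- and 0.49 in WT, a difference of -0.91 (SE 0.17, adjusted p = 0.011). Both calls were kept without each of the 12 arrays in turn.

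Pfas showed the reverse signs, with an IVF effect of 0.32 in Atf7-/- and -0.44 in WT. The difference was 0.76 (SE 0.16, adjusted p = 0.0185), and it was lost only without Atf7-/- natural mating replicate 3 (adjusted p = 0.0501) among the 12 arrays. Adsl had a difference of -0.40 (SE 0.12, adjusted p = 0.083) and Atic of -0.29 (SE 0.14, adjusted p = 0.268), so neither passed. For Gmps the IVF effects, 0.51 in Atf7-/- and 0.59 in WT, differed by -0.09 (95% interval -0.59 to 0.42), an interval wide enough to hold differences near the fold limit. The dividing-cell markers had a median difference of differences of -1.36, with 0 of 19 called and 11 of 19 at an unadjusted p under 0.05, against 22.1% of all probe sets. Of 8 Kupffer cell markers, Cd5l was called higher (1.18) and Vsig4 lower (-0.67), with a median of 0.32. Clec4g was called lower (-1.10) among 8 endothelial markers, with a median of -0.091. Of all probe sets, 6.18% were called. The part of these cells in the 3 calls was not tested.

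Some members varied little in any group. Gart, which carries several activities early in the pathway (probe set 10440929), ranged over the 12 arrays from 8.67 to 8.88, and each of its 5 differences between groups lay between -0.029 and 0.0027. Ppat, the committing step (probe set 10530806), ranged from 8.10 to 8.45 over the arrays, with group means of 8.21 ± 0.09 in Atf7-/- IVF, 8.23 ± 0.11 in Atf7-/- natural mating, 8.27 ± 0.09 in WT IVF and 8.38 ± 0.09 in WT natural mating (SD, n = 3 each). Its widest difference was -0.17 (95% interval -0.37 to 0.04), between Atf7-/- IVF and WT natural mating. Impdh1, which turns IMP into xanthosine monophosphate (probe set 10543572), ranged from 6.16 to 6.50, and its mean over the arrays stood at percentile 50.2 of all probe sets, the lowest position of the 9. Whether Impdh1 stood above the background of the arrays was not analysed here. The widest difference of Impdh1 was -0.20 (95% interval -0.42 to 0.01), for loss of ATF7 in natural mating.

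The genes also differed in how they varied together over the 12 arrays. Over the 36 pairs of members, Pearson's r ran between -0.92 and 0.87 with a median of -0.025, and 19 of 36 pairs were below 0. Pfas and Paics were the most opposed pair, at r = -0.92, and -0.57 after the group means were removed. Adsl and Atic were the closest pair, at 0.87, and 0.63 within groups. Prps1 and Paics correlated at 0.72, but only at 0.25 within groups, so their likeness lay mostly between group means. The neighbours Ppat and Paics had r = -0.33 over the 12 arrays and 0.46 within groups. These values describe 12 arrays that share a normalization and 4 group means, and no test was made on them.

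**Figure D3:**
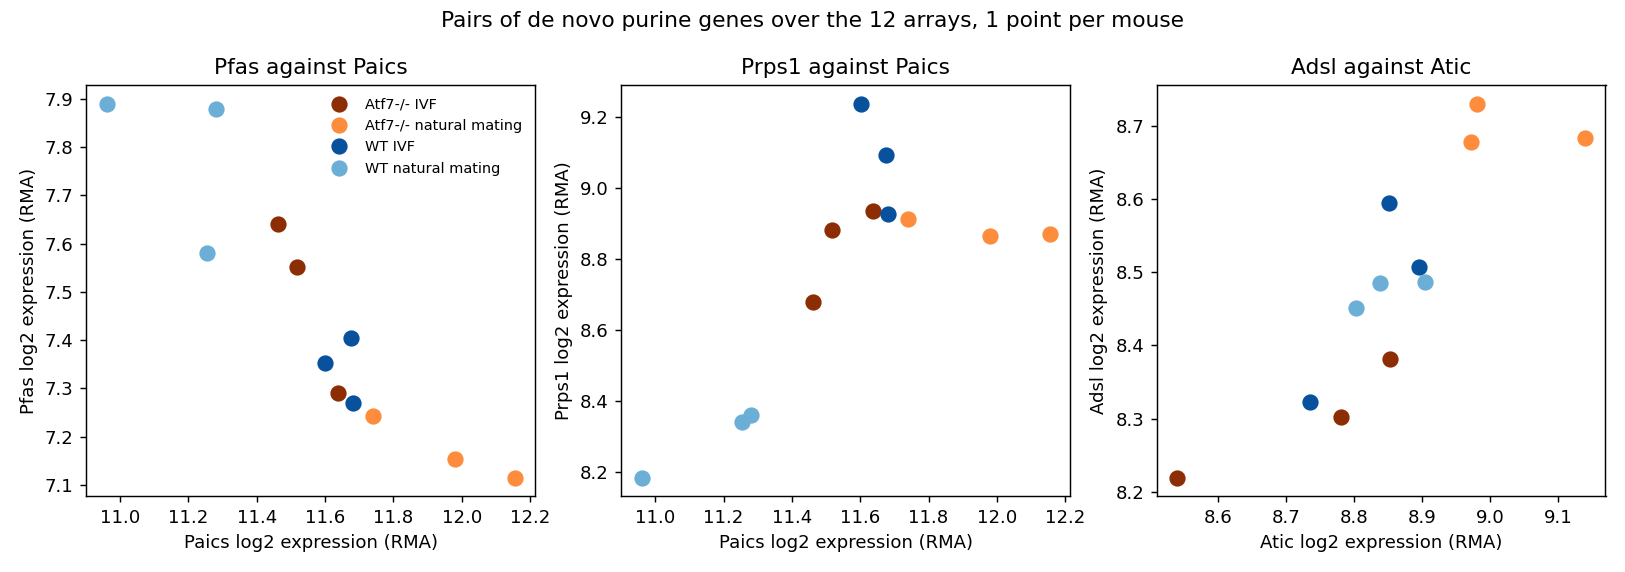
Log2 expression (RMA) of Pfas against Paics, Prps1 against Paics and Adsl against Atic, 1 point per mouse, coloured by group. Pfas was lower where Paics was higher over the 12 arrays (r = -0.92), Prps1 and Paics were both low in the 3 WT natural mating mice (r = 0.72), and Adsl and Atic followed each other (r = 0.87).

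Outside the pathway, the genes most like each called member over the 12 arrays were the following, by Pearson's r. For Prps1 they were Ufsp2, a protease of the modifier UFM1 (0.98), the translation termination factor Gspt1 (0.98) and Xk (0.96). Drap1, a transcriptional repressor subunit (0.96), Pigv, a mannosyltransferase of the GPI anchor (0.96), and Fkbp8 (0.95) were closest to Pfas. Closest to Paics were the corepressor Rcor1 (0.97), Mettl2 (0.95) and the ubiquitin ligase Nedd4l (0.94).

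Close relatives of the members were not called. Of 9 other listed symbols of the pathway, 6 had a probe set and 0 were called in any of the 6 comparisons. Those comparisons called 0.00575% to 7.5% of all probe sets. Prps2, the second PRPP synthetase gene, averaged 8.21 in Atf7-/- IVF, 8.31 in Atf7-/- natural mating, 8.21 in WT IVF and 7.85 in WT natural mating. It was therefore lowest in WT natural mating, but its differences of 0.36 for IVF in WT (SE 0.15, adjusted p = 0.168) and 0.46 for loss of ATF7 in natural mating (SE 0.15, adjusted p = 0.0726) did not pass. Prpsap2, a regulatory partner of the synthetases, differed by 0.52 for IVF in WT (SE 0.14, adjusted p = 0.0399), under the fold limit, and Prpsap1 by -0.25 (adjusted p = 0.268). Adss, the adenylosuccinate synthase of most tissues, differed by 0.18 with IVF in WT (adjusted p = 0.473) and Adssl1, the muscle form, by -0.10 (adjusted p = 0.77).

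Some genes that supply the pathway's substrates had larger fold changes than any member. Of 10 measured genes of ribose 5-phosphate supply, 2 rose and 0 fell with loss of ATF7 in natural mating. Their median was -0.021, and 7.5% of all probe sets were called. Pgd, an NADPH-producing enzyme of the pentose phosphate pathway, read 9.99, 10.23 and 10.30 in Atf7-/- natural mating and 8.23, 8.53 and 8.74 in WT natural mating, a difference of 1.67 (SE 0.22, adjusted p = 0.000803). With IVF in Atf7-/- mice it fell by 1.67 on the log2 scale (SE 0.22, adjusted p = 0.00103), and its difference between genotypes was -1.94 (SE 0.32, adjusted p = 0.00571). All 3 Pgd calls were kept without each array in turn. Pgm2, a phosphopentomutase that turns ribose 1-phosphate into ribose 5-phosphate, rose by 0.82 (SE 0.17, adjusted p = 0.00976) with loss of ATF7 in natural mating.

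The 15 measured genes that supply glycine, formyl groups and glutamine held 1 call higher and 2 lower for loss of ATF7 in natural mating. Their median was 0.069, and 7.5% of all probe sets were called (3.83% higher and 3.67% lower). Shmt2, the mitochondrial enzyme that makes glycine from serine, read 10.88, 10.30 and 10.56 in Atf7-/- natural mating and 9.65, 9.65 and 9.71 in WT natural mating (0.91, SE 0.14, adjusted p = 0.00152). With IVF in Atf7-/- mice it fell by 1.10 (SE 0.14, adjusted p = 0.000693), and the difference between genotypes was -1.03 (SE 0.19, adjusted p = 0.0107). Mthfd1l, which makes mitochondrial formate, fell by 0.80 with loss of ATF7 in natural mating (SE 0.15, adjusted p = 0.0054). It fell by 1.09 with IVF in WT mice (SE 0.15, adjusted p = 0.00283), the 1 call among the 15 genes there. In that comparison 4.52% of all probe sets were called. Asl, of the urea cycle, also fell with loss of ATF7, by 0.76 (adjusted p = 0.0288), but this call ended without any 1 of the 6 arrays.

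With IVF in WT mice, 2 of 16 measured salvage genes rose and 0 fell, with a median of 0.11, where 4.52% of all probe sets were called. One was Pnp, the purine nucleoside phosphorylase, which read 9.42, 9.41 and 9.53 in WT IVF and 8.67, 8.76 and 8.88 in WT natural mating (0.68, SE 0.12, adjusted p = 0.00862). The other was Adal (0.63, adjusted p = 0.0392), whose call was kept only with WT natural mating replicate 3 left out. Pnp also rose with IVF in Atf7-/- mice (0.67, SE 0.12, adjusted p = 0.00476), a call that ended without Atf7-/- natural mating replicate 2 or Atf7-/- IVF replicate 3. It was the 1 salvage gene called higher there, while 2, Mtap and Ak4, were called lower. The median of the 16 genes was -0.035, and 6.78% of all probe sets were called. Of 6 single-array omissions, 3 ended the Mtap call and 4 the Ak4 call.

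Mtap, which recovers adenine from methylthioadenosine, rose by 0.73 with loss of ATF7 in natural mating (SE 0.11, adjusted p = 0.00131), the 1 call among the 16 salvage genes there, and its IVF effect differed between genotypes by -0.84 (SE 0.15, adjusted p = 0.00864). Of 13 breakdown genes, 1 rose and 1 fell with IVF in WT, and 1 rose and 2 fell with loss of ATF7 in natural mating, where 4.52% and 7.5% of all probe sets were called. Nt5e, the ecto-5′-nucleotidase that releases adenosine outside the cell, rose by 1.67 with IVF in WT (SE 0.16, adjusted p = 0.000551) and by 1.40 with loss of ATF7 in natural mating (SE 0.16, adjusted p = 0.000349). Both comparisons share the WT natural mating arrays. Xdh, which makes uric acid, fell by 0.68 with loss of ATF7 in natural mating (adjusted p = 0.00829), a call that was lost when WT natural mating replicate 3 was left out (-0.51).

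**Figure D4:**
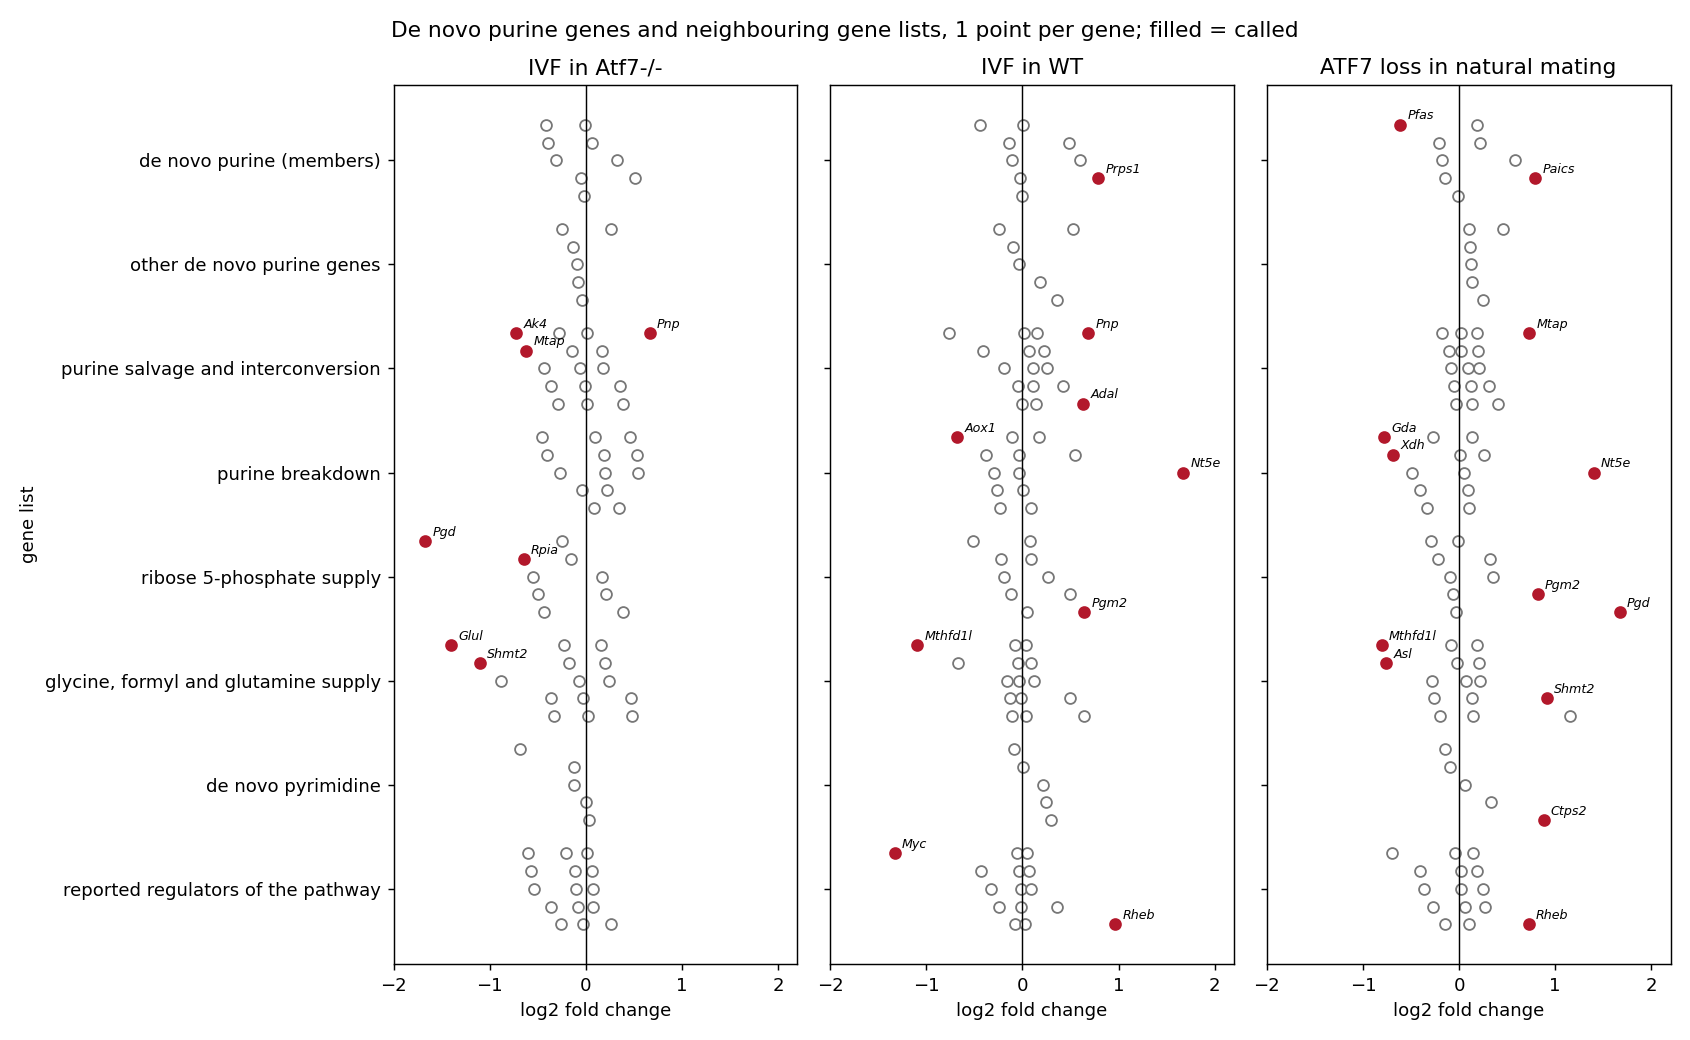
Log2 fold changes of the 9 de novo purine genes and of neighbouring gene lists for IVF in Atf7-/-, IVF in WT and loss of ATF7 in natural mating, 1 point per gene, shifted vertically for visibility. Filled red points were called. The members spanned -0.61 to 0.79 in the last 2 panels, while Pgd reached 1.67 and Nt5e 1.67 and 1.40.

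Among 15 genes reported to regulate the pathway, 1 rose and 1 fell with IVF in WT mice, where 4.52% of all probe sets were called. Rheb, the small GTPase that activates mTORC1, read 9.15, 8.89 and 9.23 in WT IVF and 8.08, 8.35 and 7.96 in WT natural mating (0.96, SE 0.16, adjusted p = 0.00577), and was called without each array in turn. It also rose by 0.72 with loss of ATF7 in natural mating (SE 0.16, adjusted p = 0.0111), against the same WT arrays. Myc fell by 1.33 with IVF in WT (SE 0.36, adjusted p = 0.0462), but the call was kept only without WT natural mating replicate 3 and ended without any other of the 6 arrays. Of 5 genes of de novo pyrimidine synthesis, a pathway that also uses PRPP at 1 of its steps, 1, Ctps2, rose with loss of ATF7 in natural mating (0.88, adjusted p = 0.0191). There 7.5% of all probe sets were called. The Ctps2 call was ended by 3 of the 6 single-array omissions, those of Atf7-/- natural mating replicate 1, Atf7-/- natural mating replicate 2 and WT natural mating replicate 3.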

How the data were processed

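Liver RNA of 12 mice was extracted with TRIzol and labelled with the WT Expression Kit, per the study's methods. The authors normalized the scans by robust multiarray averaging (RMA) in affy and deposited the resulting log2 values of each probe set, and these were not altered here. RMA, affy and limma are named in the sources without versions. The sample labels give the age as 4 weeks and the study's methods give a younger age. RMA shrinks differences of dim probe sets, and the number of arrays limits the precision.

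Probe sets were named from the platform annotation (21640 with 1 symbol, 1321 with several, 11799 with none). All 9 members were matched to RefSeq by Entrez identifier. A model of the 4 group means was fitted by limma 3.58.1 (R 4.3.3) with empirical Bayes variances and Benjamini-Hochberg adjustment over 34760 probe sets within each of 6 comparisons. The fit was tested on simulated data. Motifs were counted with Python 3.11.15 and figures drawn with matplotlib 3.10.9 and numpy 2.4.6.

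The named genes are the members, their relatives Prps2, Prpsap1, Prpsap2, Adss and Adssl1, at most 4 called genes per list and comparison, and the 3 most alike genes of each called member. Not every gene the rule took is described. The members, lists and tests were chosen with earlier results of these data known. Alternatives were the replicate number as a block, a fit of the compared groups alone, array weights, variances moderated robustly with an intensity trend, quantile normalization, median centring, brighter probe sets alone, probe sets with 1 symbol, no fold threshold and each array left out.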

Additional observations from a re-analysis of the deposited data

Results flagged for a closer look

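In 3 genes of the pathway the IVF effect differed between genotypes by the limma interaction test, which called 6.18% of all probe sets. The IVF effect in Atf7-/- mice minus that in WT mice was -0.84 for Prps1 (SE 0.15, adjusted p = 0.00757), -0.91 for Paics (SE 0.17, adjusted p = 0.011) and 0.76 for Pfas (SE 0.16, adjusted p = 0.0185). For Paics, the 3 IVF mice lay wholly below the 3 naturally conceived mice in the Atf7-/- groups and wholly above them in the WT groups, and for Pfas wholly above in the Atf7-/- groups and wholly below in the WT groups. Such separation in either direction was common, with 32.2% of all probe sets in the Atf7-/- groups and 29.4% in the WT groups.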

How the results depend on the processing

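The number of the 9 genes called was recomputed under each alternative, and the cause of the changes was not tested. With no limit on the fold it was 1 for Atf7-/- IVF against WT natural mating, 4 for IVF in WT and 2 for IVF in Atf7-/-. Of all probe sets, 5.78%, 8.62% and 12.9% were called in this way, in the same order. For IVF in WT it was 2 with array weights and 2 with median centring, where Gmps joined Prps1. With each array left out in turn it was 0 to 1 for Atf7-/- IVF against WT natural mating, 1 to 2 for IVF in WT, 0 to 1 for IVF in Atf7-/-, 1 to 3 for loss of ATF7 in natural mating, 0 for loss of ATF7 in IVF mice and 2 to 3 for the difference between genotypes. These omissions called, in the same order, 592 to 1400, 998 to 1795 and 1727 to 2621 of the 34760 probe sets. Then came 2133 to 2759, 2 to 6 and 1443 to 2482.

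Over all named genes, comparisons and alternatives, 1259 of 1382 recomputed fold changes stayed on their side of the thresholds, 115 calls were lost, 8 were gained and 0 called values changed sign. Values that were not called were compared only by their side of the thresholds. The 1382 values include every member in every comparison, also where it was not called in the fit reported. Only called values could lose a call, so the 1259 do not show how steady the calls were. Counts over all probe sets ranged between 215 and 2010 for Atf7-/- IVF against WT natural mating (1092 in the fit reported), 998 to 2997 for IVF in WT (1571), 1528 to 4498 for IVF in Atf7-/- (2356), 1494 to 4767 for loss of ATF7 in natural mating (2606), 0 to 6 for loss of ATF7 in IVF mice (2) and 1443 to 2762 for the difference between genotypes (2148).

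The deviations of same-numbered arrays from their group means correlated weakly, with r of -0.12 to 0.24 over 15 pairs. These pairs reuse the same arrays, and a factor shared by same-numbered mice could act on few genes. Whether the replicate numbers pair the mice therefore cannot be decided from these values. With the replicate number as a block, 0 members were called for Atf7-/- IVF against WT natural mating, 1 for IVF in WT, 0 for IVF in Atf7-/-, 2 for loss of ATF7 in natural mating, 0 for loss of ATF7 in IVF mice and 3 for the difference between genotypes, and 1058, 1494, 2345, 2587, 3 and 2020 probe sets in the same order. The alternative of other probe sets for a gene could not be run, since no member has several. With 3 mice a group, differences near 0.6 on the log2 scale were not told firmly from smaller ones.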
